A study of Rattus norvegicus with 2 samples.

Results

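Genes expressed by the endothelium, the cell layer that lines blood and lymph vessels, were examined in whole kidneys of Dahl salt-sensitive (Dahl/SS) rats. The list held 35 genes, chosen by symbol, and 33 of them had a probe set that carried no other gene symbol, out of 22093 genes with a value on the array. Egfl7 shared its probe set with a microRNA symbol and was not used, and Ptprb is not analysed here. Both arrays held kidney RNA from male Dahl/SS rats that had eaten 8% NaCl chow (AIN-93G, 0.3% phosphorus) for 4 weeks. The control pool, DSH, received no further treatment. The other pool, DSH+2.5%SF, also received sucroferric oxyhydroxide (SF), an iron-based intestinal phosphate binder, at 25 mg per g of chow from 1 week after the salt diet began. The rats had been obtained at 3 weeks of age. RNA of 3 rats was combined in each pool, and each pool was read on 1 Clariom D array, so that no replicate error, interval or p-value exists for any value given here. The sample labels call the pools DS and DS+2.5%SF and do not state the salt diet, which comes from the methods of the study, and the normal-salt group is not analysed here.

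Endothelial cells are held together by junction proteins such as VE-cadherin and claudin-5 and survive on vascular endothelial growth factor (VEGF), which acts on the receptors encoded by Flt1 and Kdr. In the kidney, VEGF and the Tie receptor ligand angiopoietin-1 come from neighboring epithelial and perivascular cells. Glomerular capillaries, peritubular capillaries, larger vessels and lymphatics each have an endothelium of their own, and an activated or remodeling endothelium makes more angiopoietin-2. Transcription factors of the ETS family (Erg, Fli1) and the SoxF family (Sox17, Sox18) keep endothelial genes on.

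Values are RMA intensities, a background-corrected and normalized measure of the signal of a probe set, and each gene is described by a log2 ratio, the log2 intensity in DSH+2.5%SF minus that in DSH. A gene passed the criteria of the study as higher with a ratio of 1.5 or more and a Z-score of 2.0 or more, and as lower with a ratio of 0.66 or less and a Z-score of −2.0 or less. The Z-score is the log2 ratio minus its mean over all 68842 probe sets (0.03), divided by its SD (0.34). The study gives these limits but no formula for the Z-score, so this definition was chosen here and the genes that pass may differ from those the study selected. The criteria therefore needed a level at least 1.63-fold higher or 1.57-fold lower. Intensities of different genes come from different probes and are not compared with each other. Of the 33 genes, 19 were brighter than 75% of all probe sets and 3 were dimmer than the median probe set. The defining endothelial genes Pecam1, Cdh5, Kdr and Emcn were among the 19, so these genes were readable in whole kidney RNA.

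Among the endothelial genes, 1 gene was higher by the criteria and 1 was lower. The gene that was higher was Ehd3, in mouse kidney a marker of glomerular endothelial cells. The gene that was lower was Esam, which encodes an adhesion molecule of endothelial junctions. Over all 22093 genes, 1.09% were higher and 1.36% were lower by the same criteria, and at these rates 1 gene of 33 in each direction is not a result about the list. The other 31 genes did not pass. Of the 33 log2 ratios, 23 were below 0, 8 above 0 and 2 at 0, and their median was −0.11. Over all genes, 47.5% of the ratios were below 0 and the median was 0. Most of these differences were small, with 18 of 33 genes within 0.2 of 0 on the log2 scale. Among the 19 bright endothelial genes 14 (73.7%) were below 0 with a median of −0.11, and among the 8031 bright genes of the array 58.5% were below 0 with a median of −0.06. In RNA of whole kidney, fewer endothelial cells and less RNA per endothelial cell cannot be told apart.

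**Figure D1:**
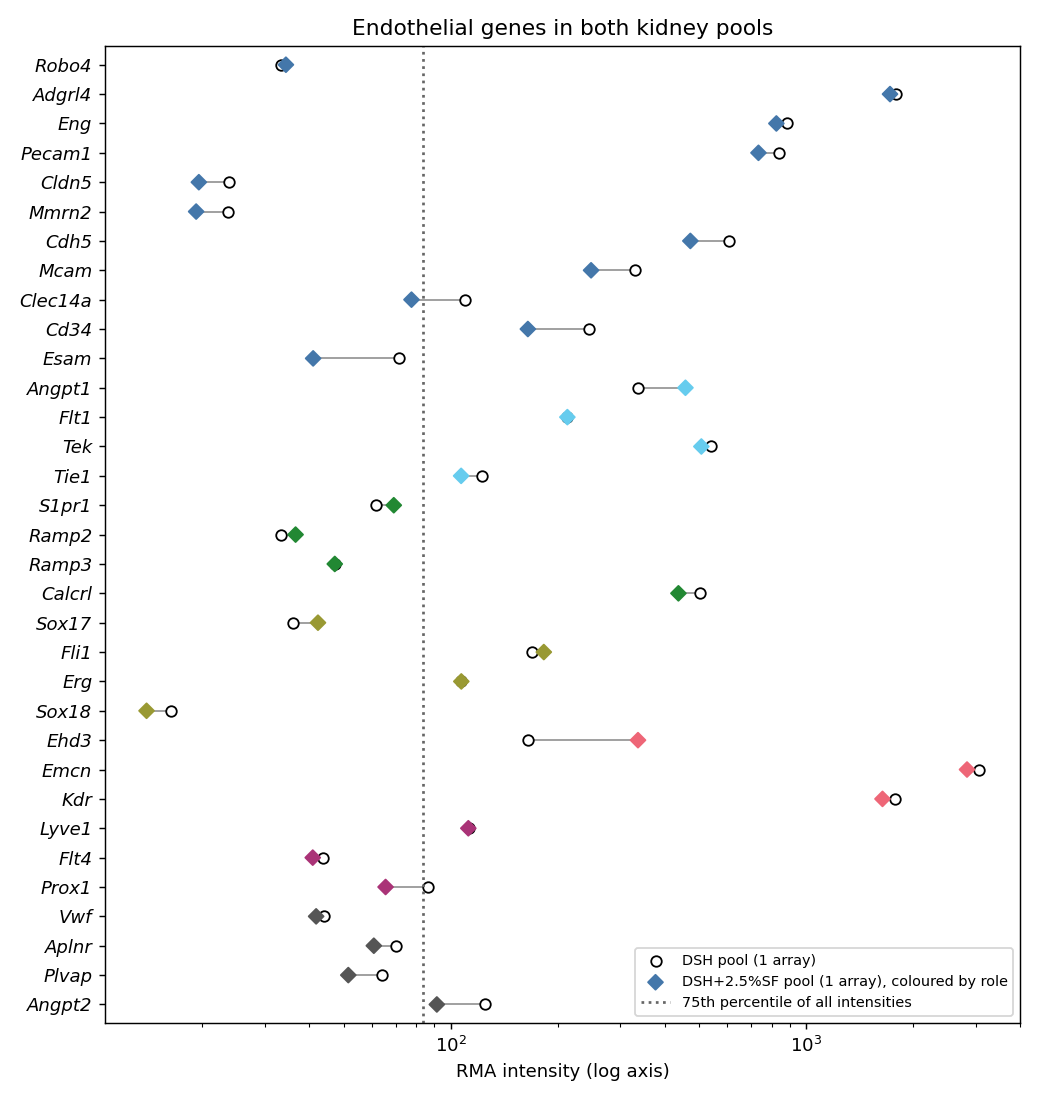
RMA intensity (log axis) of the 33 endothelial genes, grouped by role, in the DSH pool (open circles) and the DSH+2.5%SF pool (diamonds, colored by role), with 1 array per pool and no error bars. Ehd3 lies farthest to the right of its control value, at 336 against 165, and Esam farthest to the left, at 41.0 against 71.8.

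Ehd3 read 165 in DSH against 336 in DSH+2.5%SF. It encodes an ATPase of endocytic recycling, and in mouse kidney it is a marker of glomerular endothelial cells. The level was 2.04-fold higher in DSH+2.5%SF, a log2 ratio of 1.03 and a Z-score of 2.95. A Z-score taken from the 1000 probe sets closest in intensity was 2.66, and by it 1.05% of all genes were higher. Ehd3 had 1 probe set, so that only the normalizations of the same 2 arrays could change its log2 ratio. Under them it lay between 1.02 and 1.06.

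The other glomerular-enriched genes on the list did not share the size of that difference. Emcn, which encodes the sialomucin endomucin of the capillary surface coat, gave an intensity of 3058 in DSH, against 2832 in DSH+2.5%SF, a log2 ratio of −0.11. Kdr, the main signaling receptor of VEGF, had an intensity of 1778 in DSH against 1638 in DSH+2.5%SF, a log2 ratio of −0.12. The log2 ratio of Ehd3 exceeded that of Emcn by 1.14 and that of Kdr by 1.15, a difference that has no replicate check. Both Emcn and Kdr are also expressed by other renal capillaries.

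Further genes known from mouse glomerular endothelium were read from a second list, and none of the 5 measured passed the criteria. Plat, which encodes tissue plasminogen activator, read 1197 in DSH against 883 in DSH+2.5%SF, a log2 ratio of −0.44. The transcription factor genes Gata5 and Tbx3 had log2 ratios of −0.20 and −0.18, at intensities of 33.2 or less in both pools. Lpl, which encodes lipoprotein lipase, had a log2 ratio of −0.24, and Sost, a secreted Wnt inhibitor gene, 0.09. The median of these 5 was −0.20, so that Ehd3 stood alone among the glomerular endothelial genes in passing the criteria.

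Podocytes, the epithelial cells that cover the glomerular capillaries, were read beside Ehd3. Of 5 podocyte genes measured, 3 were above 0, 2 were below 0, none passed the criteria, and the median log2 ratio was 0.12. Podxl, the podocalyxin gene, which endothelial cells also express, gave an intensity of 1986 in DSH, against 3014 in DSH+2.5%SF, a log2 ratio of 0.60. Nphs1 and Wt1, which are defining podocyte genes, had log2 ratios of 0.12 and 0.15, Ptpro −0.10 and Nes −0.37. The part of glomerular content in the Ehd3 difference was not tested.

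The promoter of Ehd3 is printed as the sequence of the gene with the highest ratio, with those of Cd34 and Clec14a, which had the lowest log2 ratios among the genes whose promoter was given. They run from 250 bases before to 50 bases after the transcription start, 5′ to 3′ on the strand of the gene, from RefSeq (GRCr8). Capitals mark matches to AGGAAG or CCGGAA, forms of the ETS core, or to ACAAT, the SOX core, on either strand.

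Ehd3 (chr6:27417396-27417695, minus strand): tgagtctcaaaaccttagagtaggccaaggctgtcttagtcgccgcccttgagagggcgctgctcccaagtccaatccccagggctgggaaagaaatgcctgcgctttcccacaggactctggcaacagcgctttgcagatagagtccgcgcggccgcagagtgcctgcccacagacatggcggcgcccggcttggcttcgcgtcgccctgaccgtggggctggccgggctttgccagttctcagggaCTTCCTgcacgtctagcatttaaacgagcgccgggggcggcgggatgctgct
Cd34 (chr13:109008536-109008835, plus strand): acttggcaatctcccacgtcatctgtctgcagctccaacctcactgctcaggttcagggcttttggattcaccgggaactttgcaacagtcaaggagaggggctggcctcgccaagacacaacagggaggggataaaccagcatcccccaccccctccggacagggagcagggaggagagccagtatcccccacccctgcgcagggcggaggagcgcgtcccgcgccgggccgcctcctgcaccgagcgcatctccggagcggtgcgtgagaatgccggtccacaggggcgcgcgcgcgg
Clec14a (chr6:81619507-81619806, minus strand): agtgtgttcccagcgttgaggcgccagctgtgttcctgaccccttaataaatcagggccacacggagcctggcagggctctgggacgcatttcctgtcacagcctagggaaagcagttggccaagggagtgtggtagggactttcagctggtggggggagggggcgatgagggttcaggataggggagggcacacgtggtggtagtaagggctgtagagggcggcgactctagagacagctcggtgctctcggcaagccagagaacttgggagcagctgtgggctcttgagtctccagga

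Ehd3 held 1 match, AGGAAG read on the opposite strand from position −2 relative to the start, and neither Cd34 nor Clec14a held any of the 3 motifs in this window. Of the 35 endothelial genes, 20 had a promoter in the table, and 1 gene that passed the criteria, Esam, did not. AGGAAG was present in 13 of these 20 promoters (65.0%) and in 34.5% of all 33469 promoters of the same length. CCGGAA was present in 1 of 20, that of Kdr, and in 15.0% of all promoters. ACAAT was present in 5 of 20 and in 33.7% of all promoters. For all 3 motifs, each endothelial gene counted with 1 promoter, while the 33469 were not limited to 1 per gene. The AGGAAG and CCGGAA forms cannot share a GGAA core, and a match describes letters and not binding.

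The junction and surface genes lay almost entirely on one side. Of 11 measured, 10 were below 0, out of 23 over the whole list, with a median log2 ratio of −0.30. Over all genes 47.5% were below 0. The group is a part of the 22 general endothelial genes, of which 14 were below 0 with a median of −0.14. It includes the matrix gene Mmrn2, and other surface receptors stand in other groups. The lists were chosen with earlier results of these data known, so that this count is a description only. Esam was the 1 gene of the group that passed the criteria. Esam had an intensity of 71.8 in DSH against 41.0 in DSH+2.5%SF, a 1.75-fold lower level with a log2 ratio of −0.81 and a Z-score of −2.47. With the Z-score from the 1000 closest probe sets it was −2.20, which also passed, where 0.883% of all genes were lower. A 2-fold limit in place of the ratio criterion was not reached.

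Cd34 encodes a sialomucin of capillary endothelium and of blood progenitor cells. Its intensity was 245 in DSH against 165 in DSH+2.5%SF, a log2 ratio of −0.57. With a Z-score of −1.78 and a ratio of 0.673 it missed both criteria narrowly. Clec14a, which encodes an endothelial lectin, read 110 in DSH against 77.6 in DSH+2.5%SF, a log2 ratio of −0.50. Its binding partner Mmrn2, an endothelial matrix protein gene, was at 23.6 in DSH against 19.2 in DSH+2.5%SF, a log2 ratio of −0.30 at a dim level. Cd93, which encodes another partner of Mmrn2, had a log2 ratio of −0.16. All 3 genes of this set thus had lower values in DSH+2.5%SF, and none of them passed.

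Mcam, which encodes an adhesion molecule that endothelium shares with smooth muscle and pericytes, gave an intensity of 330.2 in DSH, against 248 in DSH+2.5%SF, a log2 ratio of −0.41. Cdh5, the VE-cadherin gene that builds endothelial adherens junctions, had an intensity of 606 in DSH against 472 in DSH+2.5%SF, a log2 ratio of −0.36. Cldn5, the claudin of endothelial tight junctions, was at 23.8 in DSH against 19.6 in DSH+2.5%SF, a log2 ratio of −0.28 at a dim level. The junction genes that did not pass, Cdh5 and Cldn5, therefore had ratios on the same side of 0 as Esam and smaller in size.

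Pecam1, the gene of the junctional adhesion molecule CD31, read 835 in DSH against 734 in DSH+2.5%SF, a log2 ratio of −0.19. Eng, which encodes endoglin, a co-receptor for BMP9, gave an intensity of 880.2 in DSH, against 824 in DSH+2.5%SF, a log2 ratio of −0.10. Adgrl4, an adhesion G protein-coupled receptor gene of endothelium, had an intensity of 1785 in DSH against 1719.9 in DSH+2.5%SF, a log2 ratio of −0.05. Each of these 3 genes differed by less than 1.2-fold between the pools.

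Robo4, an endothelial receptor gene of the roundabout family, was read by 3 probe sets that did not give 1 answer. The brightest, which represents the gene here, was at 33.3 in DSH against 34.4 in DSH+2.5%SF, a log2 ratio of 0.04. The second was at 30.03 in DSH against 26.5 in DSH+2.5%SF, a log2 ratio of −0.18. The dimmest, which the array design leaves unmapped, was at 17.4 in DSH against 10.9 in DSH+2.5%SF, a log2 ratio of −0.67 and a Z-score of −2.08, past the criteria. With the mean of the 3 the log2 ratio was −0.27, so that the direction of Robo4 depends on the probe set.

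**Figure D2:**
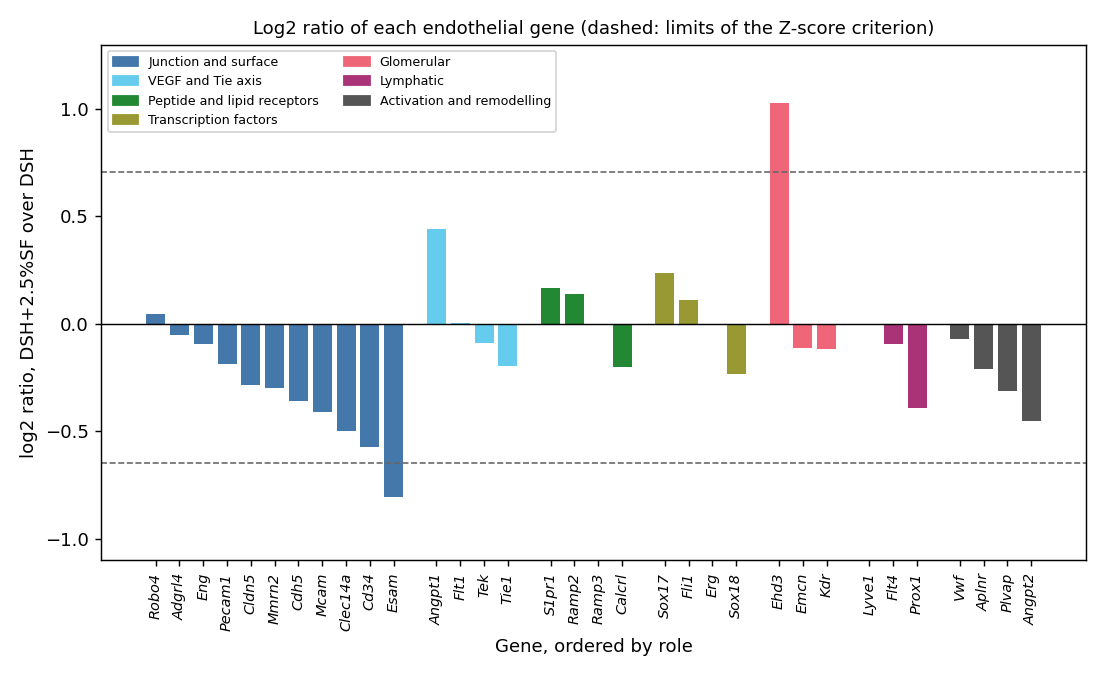
Log2 ratio of DSH+2.5%SF over DSH (vertical axis) for each of the 33 endothelial genes, colored by role, with dashed lines at the limits of the Z-score criterion (0.71 and −0.65). The bars of Ehd3 and Esam cross the lines, and 10 of 11 junction and surface genes and all 4 activation genes are below 0. Over all genes, 47.5% were below 0. Erg and Ramp3 have no bar because their ratio is 0.

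The receptors of the VEGF and Tie systems had log2 ratios within 0.2 of 0. Both angiopoietin ligands lay farther out and on opposite sides. Flt1, which encodes a VEGF receptor that also acts as a decoy, read 212 in DSH against 213 in DSH+2.5%SF, and its second, dim probe set had a log2 ratio of 0.14. Tek, the angiopoietin receptor gene Tie2, gave an intensity of 539 in DSH, against 507 in DSH+2.5%SF, a log2 ratio of −0.09. Tie1, its co-receptor, had an intensity of 123 in DSH against 107 in DSH+2.5%SF, a log2 ratio of −0.20. None of the receptor genes passed the criteria.

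Angpt1, the ligand that activates Tek, read 337 in DSH against 457 in DSH+2.5%SF, a log2 ratio of 0.44 and a Z-score of 1.21. Angpt2, which endothelium releases on activation and which can oppose Angpt1, gave an intensity of 125 in DSH, against 91.4 in DSH+2.5%SF, a log2 ratio of −0.45 and a Z-score of −1.42. Neither passed the criteria. The log2 ratio of Angpt1 exceeded that of Angpt2 by 0.89, which has no replicate check. Angpt1 had the second highest ratio of the list, after Ehd3, and is made mainly by perivascular and epithelial cells rather than by endothelium.

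The remaining activation and remodeling genes were also below 0, as were 47.5% of all genes. Plvap, which encodes the diaphragm protein of fenestrated peritubular capillaries, had an intensity of 64.02 in DSH against 51.5 in DSH+2.5%SF, a log2 ratio of −0.31. As a gene of these capillaries, Plvap does not read activation alone. Aplnr, the apelin receptor gene, read 70.4 in DSH against 60.8 in DSH+2.5%SF, a log2 ratio of −0.21. Vwf, the von Willebrand factor gene, gave an intensity of 43.99 in DSH, against 41.8 in DSH+2.5%SF, a log2 ratio of −0.07. All 4 activation genes were below 0, none passed, and their median was −0.26, against −0.14 for the 22 general endothelial genes, −0.11 for the 3 glomerular genes and −0.10 for the 3 lymphatic genes. With 3 or 4 genes in a group, these medians describe the genes named and were not tested against each other. A low median was not particular to the activation genes, as the 11 junction and surface genes had a median of −0.30. A second activation list, of 7 measured genes, had a median of −0.03.

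Lymphatic endothelial genes did not differ past the criteria. Lyve1, a hyaluronan receptor gene of lymphatics that some macrophages also express, had an intensity of 112.4 in DSH against 112.1 in DSH+2.5%SF. Flt4, the receptor of VEGF-C and VEGF-D, read 43.7 in DSH against 40.9 in DSH+2.5%SF, a log2 ratio of −0.10. Prox1, the transcription factor gene that specifies lymphatic identity, gave an intensity of 86.1 in DSH, against 65.6 in DSH+2.5%SF, a log2 ratio of −0.39. In whole kidney RNA, the cells that gave the Prox1 signal are not known. The ligand genes Vegfc and Vegfd had log2 ratios of 0.06 and 0.09. Of 4 further genes used for lymphatics, none passed and all 4 were below 0, with Pdpn, which podocytes also express, at −0.39, Ccl21 at −0.25, Reln at −0.07 and the macrophage gene Mrc1 at −0.27.

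The transcription factor genes showed no shared direction. Erg was listed at the same intensity, 107.1, in both pools. Fli1, its relative, which leukocytes and megakaryocytes also express, had an intensity of 169 in DSH against 183 in DSH+2.5%SF, a log2 ratio of 0.11. Sox17, an arterial SoxF gene, read 35.9 in DSH against 42.3 in DSH+2.5%SF, a log2 ratio of 0.24. Sox18 was the dimmest gene of the list, at 16.4 in DSH against 13.9 in DSH+2.5%SF, a log2 ratio of −0.23. For these 4 genes the median was 0.06.

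The other receptors for circulating peptides and lipids were within 0.2 of 0 on the log2 scale. Aplnr, placed with the activation genes, was at −0.21. Calcrl, the receptor gene that responds to adrenomedullin when paired with a Ramp protein, gave an intensity of 502 in DSH, against 437 in DSH+2.5%SF, a log2 ratio of −0.20. Ramp2 had an intensity of 33.2 in DSH against 36.6 in DSH+2.5%SF, a log2 ratio of 0.14, and Ramp3 was listed at 47.2 in both pools. S1pr1, the sphingosine-1-phosphate receptor gene that stabilizes the endothelial barrier, read 61.5 in DSH against 69.2 in DSH+2.5%SF, a log2 ratio of 0.17. Erg and Ramp3 were 2 of 2018 genes (9.13%) with the same intensity on both arrays.

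**Figure D3:**
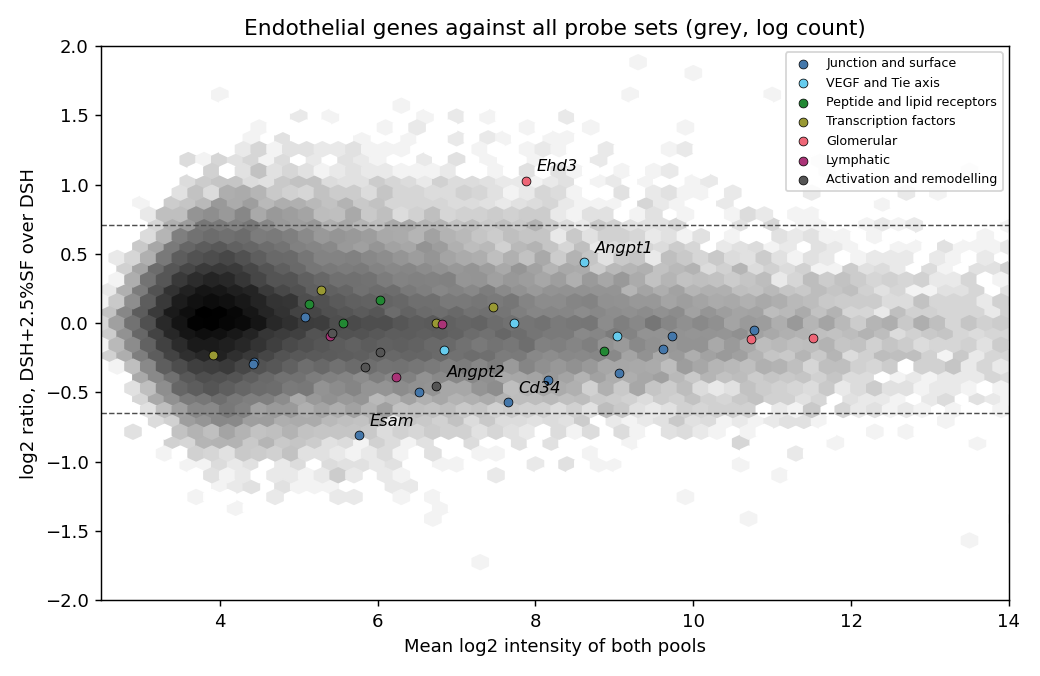
Log2 ratio of DSH+2.5%SF over DSH (vertical axis) against the mean log2 intensity of both pools (horizontal axis) for the 33 endothelial genes, colored by role, over the density of all probe sets in grey, with axes cropped around the endothelial genes and dashed lines at the Z-score limits. Ehd3 and Esam lie in the sparse upper and lower edge of the grey cloud, and most other endothelial genes lie inside it and slightly below 0.

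Ligands and partners of these receptors were read from a list of 23 genes, of which 22 were measured. None was higher or lower by the criteria, 14 were below 0, 7 above 0, and the median log2 ratio was −0.10. Vegfa, the main VEGF of the kidney, which podocytes and tubules produce, gave an intensity of 915 in DSH, against 787 in DSH+2.5%SF, a log2 ratio of −0.22. Vegfb, a ligand of Flt1, had an intensity of 152 in DSH against 205 in DSH+2.5%SF, a log2 ratio of 0.43. Slit2, a guidance ligand of roundabout receptors, read 680 in DSH against 968 in DSH+2.5%SF, a log2 ratio of 0.51, the highest of the list. Adm, the gene of adrenomedullin, gave an intensity of 61.3 in DSH, against 41.5 in DSH+2.5%SF, a log2 ratio of −0.56, the lowest of the list. The ratio of Adm was thus farther from 0 than that of its receptor genes Calcrl, Ramp2 and Ramp3. Apln, the ligand of Aplnr, had a log2 ratio of −0.23.

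Of 17 other endothelial genes, all were measured, none passed the criteria, and the median log2 ratio was −0.03 with 9 below 0 and 7 above 0. Thbd, the thrombomodulin gene of the anticoagulant endothelial surface, had an intensity of 29.6 in DSH against 47.7 in DSH+2.5%SF, a log2 ratio of 0.69 and a Z-score of 1.94, just under the limit. Procr, the receptor gene of protein C that acts with thrombomodulin, read 29.4 in DSH against 22.1 in DSH+2.5%SF, a log2 ratio of −0.41. Nos3, the endothelial nitric oxide synthase gene, was at 23.2 in DSH against 27.3 in DSH+2.5%SF, a log2 ratio of 0.24. Tm4sf1 had a log2 ratio of −0.43, the lowest of the list, and Icam2, a constitutive endothelial adhesion gene, 0.22. This second endothelial list was thus more evenly divided around 0 than the list of 33. The lists also differed in brightness, as 14 of these 17 genes and 32 of the 33 remained when dim probe sets were left out. Bright genes of the array were below 0 more often (58.5%) than all genes (47.5%).

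Genes of inflammatory endothelial activation gave 1 call among 7 measured, where 1.36% of all genes were lower by the criteria. A single gene does not describe the list. Icam1 had a Z-score of −2.09 and passed as lower, but not with the Z-score from the closest probe sets (−1.77). Leukocytes and tubules also express it. Vcam1, another adhesion molecule gene of activated endothelium, read 271 in DSH against 195 in DSH+2.5%SF, a log2 ratio of −0.48, and did not pass. The selectin genes Sele and Selp, which activated endothelium displays, each had a log2 ratio of 0.22 at dim levels of 23.0 or less in both pools. Edn1, the endothelin-1 gene, had a log2 ratio of −0.03, and Esm1, which VEGF induces in endothelium, was listed at 69.8 in both pools. The median was −0.03 over the 7 genes, and −0.25 over the 4 that remained when dim probe sets were left out.

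Cells that surround or share markers with endothelium were read in the same way. Over all genes, 1.36% were lower by the criteria, and 0.883% with the Z-score from the closest probe sets. Rgs5, a pericyte gene, gave an intensity of 1523 in DSH, against 847 in DSH+2.5%SF, 1.80-fold lower with a Z-score of −2.59, a call that was lost with the Z-score from the closest probe sets (−1.99). It was the 1 of 7 pericyte and smooth muscle genes to pass, with Acta2 at a log2 ratio of −0.42, Pdgfrb at −0.15 and a median of −0.09. Platelets share Pecam1, Esam and Vwf with endothelium. All 5 platelet genes were at 28.7 or less in both pools, with a median of 0.06 and none past the criteria. Of 7 leukocyte genes 1 was lower by the criteria (Cd79a, a call lost with the Z-score from the closest probe sets, at −1.73), none was higher, and the median was −0.13, with Ptprc listed at the same intensity in both pools. Of 7 tubule genes none passed, and the median was −0.07. The part of these cells in the endothelial ratios was not tested.

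**Figure D4:**
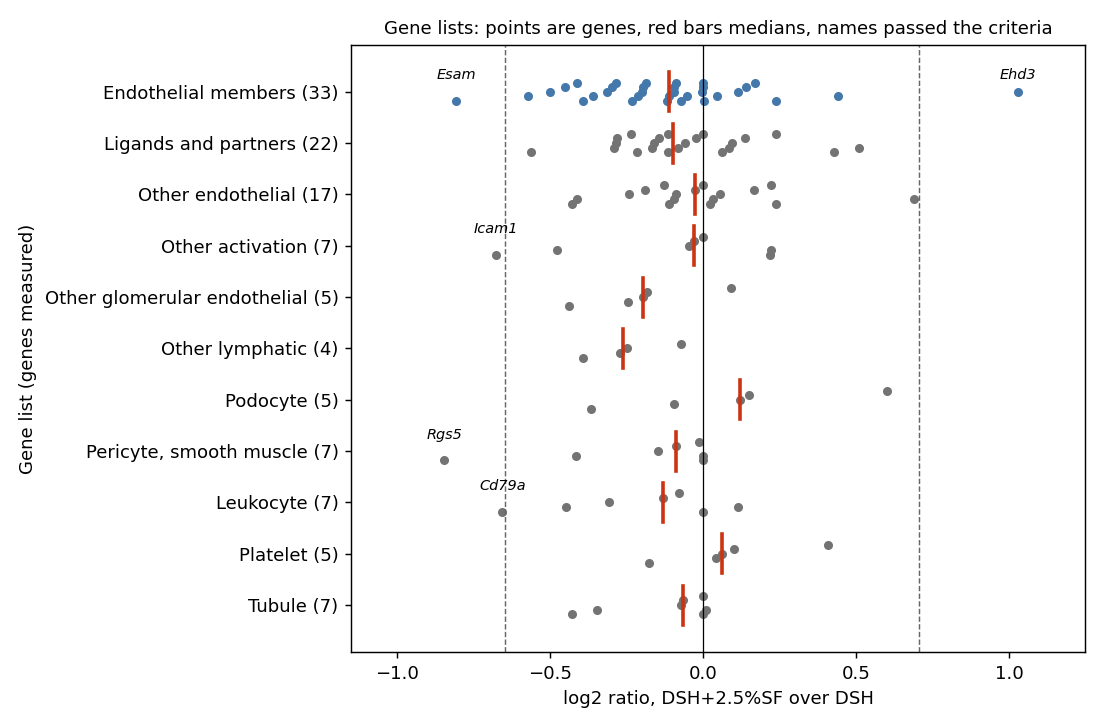
Log2 ratio of DSH+2.5%SF over DSH (horizontal axis) of every measured gene in the endothelial list (blue) and in 10 comparison lists (grey), with the median of each list as a red bar and dashed lines at the Z-score limits. The medians lie between −0.26 and 0.12, and the named points, Ehd3, Esam, Icam1, Rgs5 and Cd79a, are those that passed the criteria.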

How the data were processed

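Kidney RNA of 3 rats per group was pooled and hybridized to 1 Clariom D array per pool. The authors computed RMA intensities with Affymetrix Expression Console 1.4.1 per the labels, and the deposited intensities are linear. For the probe sets, a genome build is not given in the sources used. From the 68842 intensities, log2 ratios and Z-scores were calculated. The platform annotation gives 23446 probe sets 1 gene symbol, 505 several and 44891 none used here. Each gene was represented by its brightest probe set with that symbol alone. Of the 33 genes, 2 (Robo4 and Flt1) had several.

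Every endothelial gene could be named, and of the other lists every gene past the criteria and up to 5 ligands, receptors, partners or relatives. Of the ligands and partners 8 are named, 3 over that limit, and Thbd, Tm4sf1, Slit2 and Adm were singled out after their values were seen. The genes and lists were chosen with earlier results of these data known.

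The number of arrays, 1 per group, limits the precision, and no test between the pools was possible. Alternatives were a Z-score among the 1000 nearest probe sets in intensity, the ratio alone, a 2-fold limit, quantile normalization, median centring, a loess correction (span 0.3), the mean of all probe sets, and leaving out dim probe sets. The code for the calls was checked on simulated log2 ratios with known changes, which gives no error rate for these pools. Python 3.11.15, numpy 2.4.6, pandas 2.3.3, statsmodels 0.14.6 and matplotlib 3.10.9 were used.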

Additional observations from a re-analysis of the deposited data

How the results depend on the processing

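Ehd3 was the endothelial gene called higher under all 8 alternatives tried. Esam was the gene called lower under 7 of the 8, and with a 2-fold limit the count of lower genes was 0. Not all of these alternatives could lose a call. The ratio alone is looser than both criteria together. The mean of probe sets changes nothing for Ehd3 and Esam, which had 1 probe set each. The medians of all endothelial genes (−0.12 to −0.09), of the general, glomerular, lymphatic and activation genes, and of the ligands and other endothelial genes moved by less than 0.1 on the log2 scale under every normalization, probe set rule and intensity filter tried. The median of the other activation genes moved from −0.03 to −0.25 when dim probe sets were left out, which left 4 of its 7 genes. Among 266 values of single endothelial genes under these alternatives and the further probe sets of Robo4 and Flt1, which were added after seeing the data, 264 kept their call and moved by less than the SD of the 1000 nearest probe sets. The others were Esam with the 2-fold limit and the dimmest probe set of Robo4, at −0.67. Many of the 266 log2 ratios could not move. The changed criteria and the intensity filter leave a log2 ratio as it is, and so does the probe set mean for a gene with 1 probe set. Only median centring, quantile normalization and the loess correction could change the log2 ratio of such a gene. No paired analysis was possible because each group had 1 array. For the same reason differences between the pools cannot be told apart from differences among the pooled rats.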
